A study of Mus musculus with 14 samples.

Results

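Etv4 and Etv5 were knocked down together in EpRas cells that received no TGF-β, and the genes that differed from the control siRNA with each of 2 siRNA pairs are described here. EpRas cells are mouse mammary gland epithelial EpH4 cells transformed with H-RasG12V, and every library of this comparison carries that oncogene. The comparison holds 3 of the 14 RNA-seq libraries of the series, all labelled as not treated with TGF-β: 1 of cells transfected with the control siRNA siNC, 1 with siRNA pair 1 (MSS237548 and MSS272298) and 1 with pair 2 (MSS237550 and a custom-made Etv5 siRNA). The matching 3 libraries of cells given TGF-β (1 ng/ml, 48 h) and 2 libraries of untreated, untransfected EpRas cells are used for reference. A gene was called lower or higher when its log2(FPKM + 1) was at least 1 (2-fold) below or above siNC with pair 1 and also with pair 2. FPKM counts sequenced fragments, corrected for how long the transcript is and how deeply the library was sequenced. By this rule 226 genes were lower and 140 were higher among 9094 genes tested.

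Etv4 and Etv5 form, with Etv1, the PEA3 subfamily of ETS transcription factors. These proteins bind DNA sites with a GGAA core, often next to sites of the AP-1 complex of Fos and Jun proteins, and their genes are switched on by Ras-ERK signalling. In mammary and other carcinomas they are known as regulators of matrix metalloproteinases and other secreted proteins.

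The sequence of the custom-made siRNA of pair 2, taken from the labels, is shown because it places the knockdown on the transcript, with all its bases in lower case as none is singled out. Its 25 nt are the reverse complement of a site in a coding exon of Etv5, exon 11 of 13, at chr16:22392674-22392698 on the minus strand (mm10), in both Etv5 transcripts of the GENCODE vM21 annotation that hold it.
Etv5 siRNA of pair 2: uuaaauuccaugccucggccagucc

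Both targets were lower with both pairs. Etv4 (chr11:101769742-101785310) was at 57.4 FPKM with siNC, 11.6 with pair 1 and 27.9 with pair 2, which makes the siNC value 4.95 and 2.06 times those of the pairs. Etv5 (chr16:22381313-22439570) was at 8.85 FPKM with siNC, 1.61 with pair 1 and 1.26 with pair 2, ratios of 5.48 and 7.04. The 2 pairs lowered Etv5 to similar levels, whereas Etv4 was left higher by pair 2 than by pair 1. The intervals that Cuffdiff gives, which include an estimate of the spread as well as counting error, ran from 30.6 to 84.3 FPKM for Etv4 with siNC and from 14.2 to 41.5 with pair 2, so that these overlapped. For pair 1 the Etv4 interval ended at 18.2 FPKM, below that of siNC. For Etv5 the siNC interval of 4.09 to 13.6 FPKM lay above those of pair 1, up to 2.98, and of pair 2, up to 2.40. Etv5 had 238 reads with siNC, 59 with pair 1 and 43 with pair 2. In the untransfected EpRas libraries Etv4 was at 64.8 and 62.2 FPKM and Etv5 at 10.9 and 9.50 FPKM, so the siNC library was close to them for both targets. Etv1 did not reach 5 FPKM in any siRNA library and stood at 1.54 FPKM with siNC, 1.27 with pair 1 and 1.48 with pair 2. None of the 13 tested ETS factors outside the subfamily was called, where 2.49% of all genes tested were lower and 1.54% higher.

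**Figure D1:**
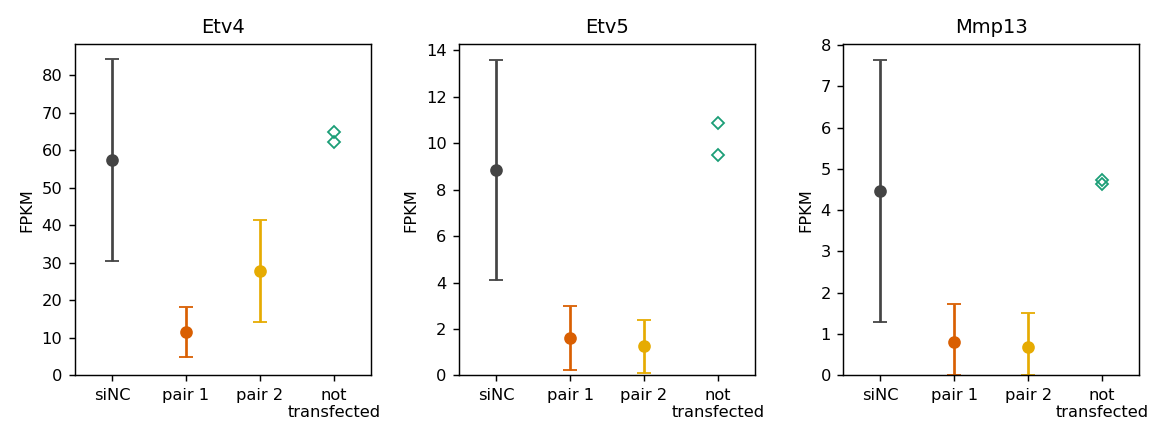
FPKM of Etv4, Etv5 and Mmp13 in the 3 siRNA libraries without TGF-β, with the Cuffdiff interval as a bar, and in 2 untransfected EpRas libraries (open diamonds, no interval drawn). For all 3 genes the siNC point lies near the untransfected points and both knockdown points lie below them. For Etv4 the siNC and pair 2 bars overlap, and for Mmp13 the siNC bar overlaps those of both pairs.

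Of the 3 libraries without TGF-β, siNC was the shallowest. Taking siNC as 1, the relative depth was 1.36 with pair 1 and 1.27 with pair 2, and 5 FPKM corresponded to a median of 87.7 to 119.2 reads in the 3 libraries. All 8 epithelial markers listed were tested and none was called, with Krt8 at 1298, 1239.6 and 1083 FPKM with siNC, pair 1 and pair 2. Of the markers of other cell types, all endothelial and adipocyte markers were under the 5 FPKM minimum and of 6 leukocyte markers Ptprc, Cd3e and Ms4a1 were at or near 0. The leukocyte list summed to 5.595 FPKM with siNC, 3.24 with pair 1 and 4.43 with pair 2, most of it Cd68, a macrophage marker, at 5.17, 2.83 and 3.94 FPKM. Of 7 fibroblast markers, Thy1 and Lum were listed at 0 in the 3 libraries, but the list summed to 5.10 FPKM with siNC, 22.7 with pair 1 and 15.2 with pair 2. Most of this difference came from Col1a1, which was at 0.629 FPKM with siNC, 14.3 with pair 1 and 2.07 with pair 2, and from Pdgfrb. The part of such cells in the results was not tested, and in RNA from whole cultures fewer cells of a type and less RNA per cell cannot be told apart.

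The 226 lower genes were 2.49% of the genes tested and the 140 higher genes 1.54%. In opposite directions, 2-fold with each pair, were 4 genes. With 1 pair alone the counts were 414 lower and 304 higher for pair 1, and 437 and 351 for pair 2. When the Cuffdiff interval of each pair also had to lie outside that of siNC, 37 lower genes (0.407%) and 8 higher genes (0.088%) remained. Protein-coding genes made up 184 of the lower and 115 of the higher genes, and 25 and 14 were genes of the short snoRNAs and miRNAs. The filter was passed through siNC libraries only by 67 of the lower genes and through knockdown libraries only by 40 of the higher genes, which favours these directions. The 67 included Etv5, Rgs16, Cxcl3, Serpinb2, Trp53inp1 and Oasl1. The 40 included Wisp2, Col6a1, Pdgfrb, Idi1, Smad6 and Ankrd37.

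**Figure D2:**
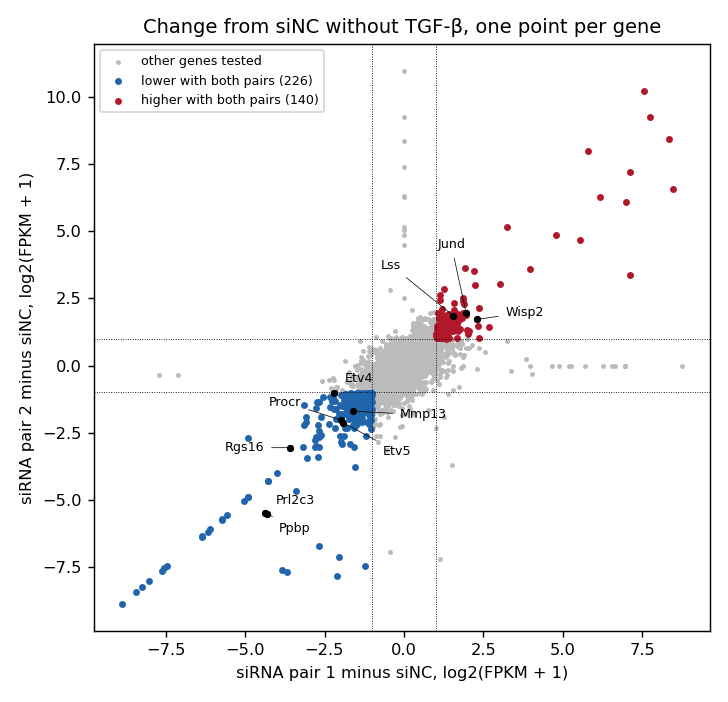
Difference from siNC in log2(FPKM + 1) for siRNA pair 1 (x axis) and pair 2 (y axis) without TGF-β, one point per tested gene, with dotted lines at 2-fold. Both axes subtract the same siNC library, so the alignment of the points along the diagonal includes whatever is particular to that library.

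A single siNC library stands for the control in all of these values. With the lone library assumed to vary like the pairs, limma on all 6 siRNA libraries called 16 lower (0.176%) and 5 higher (0.055%) genes at a Benjamini-Hochberg adjusted p below 0.05, and 1401 genes had an unadjusted p below 0.05. Of these 21 genes, 18 were small RNA genes or unnamed gene models. The others were Sprr1a, Prl2c2 and Serpinb9b, all lower. Etv5 itself was at an adjusted p of 0.090 in this limma fit (log2 change -2.02 ± 0.21, SE) and Etv4 at 0.306 (-1.62 ± 0.56), although both were lower with each pair. An additive limma model, which takes 1 knockdown effect over the libraries without and with TGF-β, called 123 lower (1.35%) and 70 higher (0.770%) genes, among them 97 of the 226 and 43 of the 140. Like the other limma fit it takes the libraries of one siRNA without and with TGF-β as independent. With 1 mean per siRNA over both conditions, a limma fit of 3 values a gene with 1 residual degree of freedom, none of these 193 calls was kept, and 1150 genes had an unadjusted p below 0.05. In that fit the 8 genes whose additive p-values are given below had adjusted p-values of 0.169 (Rgs16) to 0.276 (Mmp10 and Procr). Whether the libraries came from separate cultures is not stated, so p-values cover only the spread between these libraries.

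The siNC library was itself far from the untransfected EpRas cells for many of the called genes. The untransfected libraries were prepared separately and quantified in another Cuffdiff run, so the transfection and the processing cannot be told apart in this comparison. For 155 of the 226 lower genes (68.6%), siNC was at least 2-fold above both untransfected libraries, which held for 3.78% of all genes tested. For 56 of the 140 higher genes (40.0%), siNC was at least 2-fold below both, against 1.52% of all. The siNC value entered the choice of these genes, so the shares are descriptions only. Both pairs were at least 2-fold below both untransfected libraries for 22 genes (0.242%), of which 11 were among the 226. Both pairs were 2-fold above for 40 genes (0.440%), of which 16 were among the 140.

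These 11 genes, named after their values were seen, were Etv4, Etv5, Mmp13, Mmp10, Rgs16, Procr, Ramp3, Sdcbp2, Cxcl3, the long noncoding RNA Neat1 and 2610203C20Rik. All but Cxcl3 and 2610203C20Rik, 9 genes, were also lower with both pairs in the TGF-β libraries, which have their own siNC. Ramp3, a partner protein of the calcitonin receptor family, was at 46.6 FPKM with siNC, 9.91 with pair 1 and 14.6 with pair 2, and at 30.7 and 32.1 in untransfected cells. Sdcbp2 (syntenin-2) was at 24.0, 6.29 and 4.03 FPKM in the same order, and at 15.6 and 14.5 in untransfected cells. Neat1 was at 99.0 FPKM with siNC, 35.5 with pair 1 and 28.1 with pair 2, and at 136 and 83.1 in untransfected cells. For these 3 genes siNC and untransfected cells were on one side and both pairs on the other.

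Of the 16 higher genes beyond the untransfected cells, 7 were snoRNA or miRNA genes, most of them listed at 0 with siNC. The other 9, named after their values were seen, were Bmf, Col6a1, Cp, Krt14, Padi3, Ptms, Wisp2, B930041F14Rik and Gm20571. Bmf, a protein that promotes cell death, was at 1.37 FPKM with siNC, 7.33 with pair 1 and 7.07 with pair 2, and at 1.95 and 2.61 in untransfected cells. Cp (ceruloplasmin), a copper-binding ferroxidase, was at 5.31, 15.9 and 22.7 FPKM with siNC, pair 1 and pair 2, and at 4.47 and 5.47 in untransfected cells. Ptms (parathymosin) was at 169, 426 and 465 FPKM, and at 188 and 211 in untransfected cells. With TGF-β these 3 genes were not called, and Wisp2 was the only 1 of the 16 that was higher again.

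Among the matrix metalloproteinases, enzymes that cut the extracellular matrix, 8 of 18 reached the filter, 2 were lower (2.49% of all genes tested) and none was higher. The list's median log2 change was -0.99 with pair 1 and -0.17 with pair 2, against 0.02 and 0.01 over all genes tested. Mmp13 (collagenase 3, chr9:7272514-7283333) was at 4.46 FPKM with siNC, 0.801 with pair 1 and 0.684 with pair 2, from 82, 20 and 16 reads. Its siNC value was 5.57 and 6.52 times those of the pairs and close to the 4.63 and 4.74 FPKM of untransfected cells. However, the siNC interval, from 1.29 FPKM, overlapped those of pair 1, up to 1.73, and of pair 2, up to 1.52. Mmp13 reached 5 FPKM only in TGF-β libraries, where it stood at 22.5 FPKM with siNC, 5.80 with pair 1 and 3.92 with pair 2. Mmp10 (stromelysin 2, chr9:7502360-7510240) was at 16.2 FPKM with siNC, 6.09 with pair 1 and 7.42 with pair 2, and at 23.8 and 24.8 in untransfected cells. The additive limma model gave adjusted p = 0.022 for Mmp13 (log2 change -1.84 ± 0.20, SE) and 0.036 for Mmp10 (-1.20 ± 0.18), both lower with each pair without and with TGF-β. Mmp3 and Mmp9 were lower with pair 1 only: Mmp3 was at 11.2, 1.05 and 7.22 FPKM with siNC, pair 1 and pair 2. Mmp9 was at 10.7, 4.05 and 11.9 FPKM in the same order, with 32.2 and 24.2 in untransfected cells. Membrane-type Mmp14 was not called, at 56.4 FPKM with siNC, 79.3 with pair 1 and 75.6 with pair 2.

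Among the 11 tested inhibitors of proteases and members of the plasminogen system, 1 was lower (2.49% of all genes tested), and 8 of 11 were below siNC with both pairs at any size, against 36.8% of all genes tested. Serpinb2, an inhibitor of plasminogen activators, was at 11.9 FPKM with siNC, 2.94 with pair 1 and 2.26 with pair 2, but at 0.631 and 0.764 in untransfected cells. The urokinase gene Plau was just outside the rule at 171, 90.1 and 84.5 FPKM with siNC, pair 1 and pair 2. Its receptor Plaur was not called either, at 187, 107 and 92.7 FPKM, with 182 and 158 in untransfected cells. For Plau the pairs matched the untransfected cells, at 84.7 and 70.0 FPKM, and for Plaur it was siNC that matched them.

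The 12 lower genes named by rule, all with intervals apart from siNC and a mean of at least 10 FPKM over the 6 siRNA libraries without and with TGF-β, were Prl2c3, Ppbp, Lce1h, Rgs16, Mgst2, Lce1g, Grem1, Procr, Sema7a, Il24, Ndufb4 and Nubpl. Ppbp (Cxcl7, a chemokine for neutrophils) was at 105 FPKM with siNC, 4.40 with pair 1 and 1.32 with pair 2, from 685, 39 and 11 reads. In untransfected cells Ppbp was at 4.45 and 5.30 FPKM, so that siNC stood alone among the 5 untreated libraries. Rgs16, which shortens signalling of G protein-coupled receptors, was at 21.7 FPKM with siNC, 0.883 with pair 1 and 1.74 with pair 2, and at 4.58 and 4.93 in untransfected cells. Rgs16 was thus below the untransfected cells with both pairs and above them with siNC. Procr, the endothelial protein C receptor, was at 114 FPKM with siNC, 28.3 with pair 1 and 27.1 with pair 2, and at 80.5 and 81.9 in untransfected cells. The siNC interval of Procr began at 60.9 FPKM and those of the pairs ended at 43.1 and 41.6. In the additive limma model, Rgs16 changed by -3.05 ± 0.24 (SE) on the log2 scale (adjusted p = 0.020) and Procr by -1.83 ± 0.25 (adjusted p = 0.033). Rgs16 reached 5 FPKM in siNC libraries only, so passing the filter favoured its direction and its p-value is a description.

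Il24, an interleukin of the IL-10 family, was at 135 FPKM with siNC, 21.5 with pair 1 and 35.5 with pair 2, and at 42.5 and 44.8 in untransfected cells. Grem1, a secreted antagonist of BMPs, was at 27.0, 2.27 and 5.59 FPKM with siNC, pair 1 and pair 2, and at 11.1 and 7.32 in untransfected cells. Sema7a, a membrane-anchored semaphorin, was at 28.9, 2.51 and 6.89 FPKM, and at 8.18 and 11.8 in untransfected cells. All 3 genes were highest with siNC and below the untransfected cells with both pairs. With TGF-β, Il24 was again lower with both pairs, at 100.4 FPKM with siNC and 21.3 and 28.0 with the pairs. Grem1 was not, at 41.3 FPKM with siNC, 11.6 with pair 1 and 30.3 with pair 2. Neither was Sema7a, at 48.9 FPKM with siNC, 14.8 with pair 1 and 46.5 with pair 2.

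Of 30 tested cytokines and growth factors Il24 alone was called. Of 7 tested chemokines 3 were lower, Ppbp, Cxcl3 and Cxcl5, all ligands of the neutrophil receptor Cxcr2, against 2.49% lower among all genes tested. Cxcl3 reached 5 FPKM only in the siNC library without TGF-β, so passing the filter favoured its direction and the count is a description. Cxcl3 was at 10.4 FPKM with siNC, 2.32 with pair 1 and 2.48 with pair 2, and at 7.23 and 6.29 in untransfected cells. Cxcl5 was at 43.2 FPKM with siNC, 16.6 with pair 1 and 9.25 with pair 2, but at 4.81 and 7.24 in untransfected cells. So for Cxcl3 the pairs were the low libraries, and for Cxcl5 siNC was the high one.

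Genes of the cornified envelope, the cross-linked protein shell of terminally differentiating keratinocytes, included 3 that, without TGF-β, were at or near 0 outside siNC. Of 23 listed genes 5 reached the filter, 3 were lower (2.49% of all genes tested) and none higher. Sprr1a and Ivl reached 5 FPKM through siNC libraries only, so that passing the filter favoured their direction and the count is a description. Sprr1a was at 18.5 FPKM with siNC and listed at 0 with both pairs. Ivl (involucrin) was at 2.69 FPKM with siNC, 0 with pair 1 and 0.0622 with pair 2, from 34, 0 and 1 reads. Lce1f was at 6.53, 0.192 and 0.410 FPKM with siNC, pair 1 and pair 2, from 25, 1 and 2 reads. In untransfected cells none of these 3 genes exceeded 0.583 FPKM, so among the 5 untreated libraries they exceeded 1 FPKM in siNC only. With TGF-β, Lce1f was at 151 FPKM with siNC, 29.9 with pair 1 and 43.3 with pair 2, whereas Ivl was at 6.46, 0 and 0.128 FPKM and Sprr1a at 1.05 FPKM with siNC and listed at 0 with both pairs. The neighbouring genes Lce1g and Lce1h were among the named lower genes, with Lce1g at 315 FPKM with siNC, 51.0 with pair 1 and 51.8 with pair 2, and at 48.5 and 34.6 in untransfected cells. Lce1h was at 77.6, 6.48 and 2.10 FPKM with siNC, pair 1 and pair 2, and at 13.8 and 14.9 in untransfected cells. Lce1 genes, and Prl2c3 with Prl2c2, have near-identical copies, between which reads may have been split in an uncertain way. Prl2c3 (proliferin family) was at 138 FPKM with siNC, 5.64 with pair 1 and 2.11 with pair 2, and at 0.430 or less in untransfected cells.

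Mgst2, a microsomal glutathione S-transferase that also makes leukotriene C4, was at 92.0 FPKM with siNC, 12.3 with pair 1 and 12.8 with pair 2. The untransfected libraries disagreed for Mgst2, at 33.2 and 9.30 FPKM. Ndufb4, a subunit of respiratory complex I, was at 496 FPKM with siNC, 134 with pair 1 and 79.6 with pair 2. Nubpl, an assembly factor of the same complex, was at 47.2, 11.3 and 12.7 FPKM. For both the siNC library was the only high one: with TGF-β Ndufb4 was at 136 FPKM with siNC against 77.7 and 138 with the pairs, and Nubpl at 10.8 against 14.7 and 10.7. Of 62 tested respiratory chain genes Ndufb4 was the only one called (1.61% lower, against 2.49% of all genes tested).

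**Figure D3:**
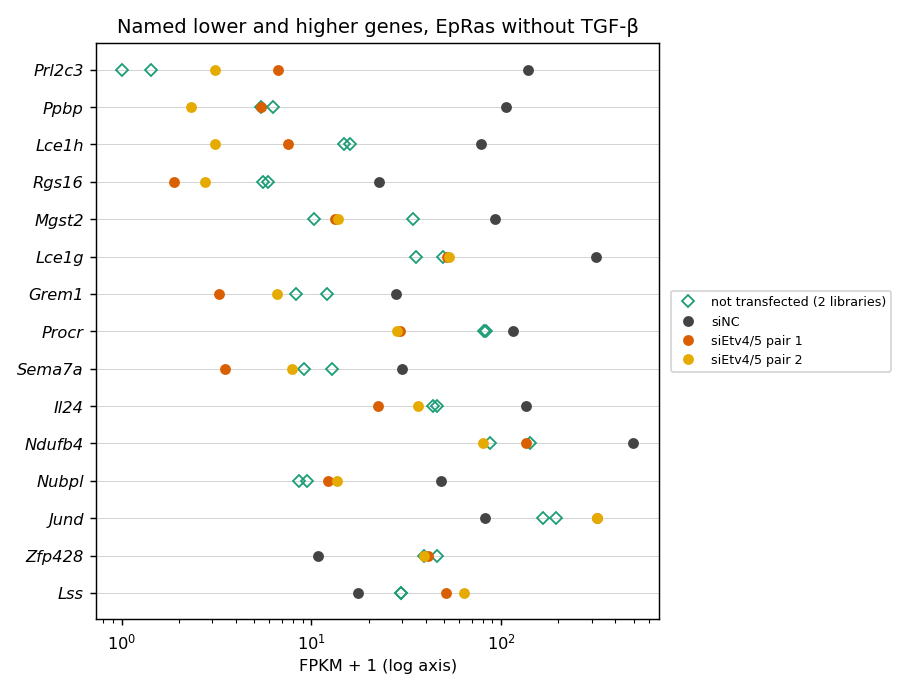
FPKM + 1 on a log axis for the 12 lower genes and the 3 higher genes named by rule, in the siNC library, both knockdown libraries and 2 untransfected EpRas libraries without TGF-β. For most lower genes, including Ppbp, Lce1g and Ndufb4, siNC is the only library far to the right, and for 7 of the 12, among them Rgs16 and Procr, both pairs also lie left of both untransfected libraries.

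Early targets and feedback inhibitors of ERK signalling, the pathway that drives Etv4 and Etv5, had 1 lower gene of 14 tested and none higher, against 2.49% and 1.54% of all genes tested. Their median log2 change was -0.07, but 0.07 with pair 2 alone, against 0.01 over all genes tested. Ier3, an early response gene, was at 536 FPKM with siNC, 164 with pair 1 and 176 with pair 2, and at 273 and 233 in untransfected cells. The additive limma model gave -1.45 ± 0.16 (SE) for Ier3, adjusted p = 0.023. Dusp4, a phosphatase of ERK, was just outside the rule at 34.6 FPKM with siNC and 17.0 with either pair. Ccnd1 (cyclin D1) was at 647, 454 and 441 FPKM with siNC, pair 1 and pair 2, and was not called.

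Matrix proteins were found on both sides. Of 22 tested matrix glycoproteins 3 were lower and 2 higher, and of 13 tested collagens 1 was higher, against 2.49% lower and 1.54% higher among all genes tested. Among the lower genes were Ecm1 and Lama3, a laminin chain of the epithelial basement membrane. Lama3 was at 37.3 FPKM with siNC, 6.63 with pair 1 and 16.01 with pair 2. In untransfected cells Lama3 was at 12.3 and 10.5 FPKM, so siNC was the highest of the 5 untreated libraries. Ecm1 (extracellular matrix protein 1) was at 296 FPKM with siNC, 32.4 with pair 1 and 107 with pair 2, and at 71.4 and 44.3 in untransfected cells. The integrin chain Itga2 was also lower, at 9.85, 1.73 and 4.03 FPKM with siNC, pair 1 and pair 2, against 3.34 and 4.75 in untransfected cells. On the higher side, Sparc (osteonectin) was at 121 FPKM with siNC, 261 with pair 1 and 298 with pair 2. The untransfected cells had 286 and 384 FPKM of Sparc, so siNC was the low library. Wisp2, a matricellular protein, was at 1.03 FPKM with siNC, 8.88 with pair 1 and 5.65 with pair 2, against 1.60 and 1.81 in untransfected cells. Col6a1 was at 3.21, 9.01 and 29.4 FPKM with siNC, pair 1 and pair 2, against 3.55 and 3.54 in untransfected cells. Wisp2 and Col6a1 were higher with both pairs than in siNC and untransfected cells alike, and Wisp2 was again higher with TGF-β, at 4.59 and 3.60 FPKM against 0.295. Sparc too was higher again with TGF-β, at 556 and 546 FPKM with the pairs against 174 with siNC, whereas Col6a1 was not called. Pdgfrb, a receptor of platelet-derived growth factor and a fibroblast marker, was at 1.09, 5.25 and 9.35 FPKM with siNC, pair 1 and pair 2, while the untransfected cells had 7.14 and 8.11.

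The list with the most genes on the higher side was sterol synthesis. These genes serve the synthesis and uptake of cholesterol or encode their regulator SREBP-2, and they are known to be induced together when cells run short of sterol. All 23 listed genes were tested, 8 were higher (34.8%, against 1.54% of all genes tested) and none lower, 20 lay above siNC with both pairs (39.1% of all genes tested), and the median log2 change was 0.98 against 0.01 over all genes tested. The list had already been seen to move in earlier results of these libraries, so its count is a description. Lss (lanosterol synthase) was at 16.6 FPKM with siNC, 50.4 with pair 1 and 62.5 with pair 2, ratios to siNC of 3.04 and 3.77, with intervals apart. Fdps (farnesyl diphosphate synthase) was at 160 FPKM with siNC, 440.1 with pair 1 and 469 with pair 2. Srebf2, which encodes SREBP-2, was at 36.6 FPKM with siNC, 98.9 with pair 1 and 103 with pair 2. The other 5 called genes were Idi1, Mvk, Mvd, Cyp51 and Sqle. Idi1 was at 2.22, 7.29 and 10.4 FPKM with siNC, pair 1 and pair 2, from 44, 196 and 261 reads. Sqle (squalene epoxidase) was at 58.1, 120 and 135 FPKM. Dhcr7, Ebp and Sc5d, enzymes of the last steps, stayed near siNC with both pairs, the farthest being Ebp at -0.15 on the log2 scale with pair 1.

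Relative to the untransfected cells the sterol genes were low in siNC as well as high with the pairs. The siNC library was below both untransfected libraries for 18 of the 23 genes (34.4% of all genes tested), with a list median of -0.71 on the log2 scale, against 0.06 over all genes tested. Both pairs were above both untransfected libraries for 14 of 23 (30.3% of all), with a list median of 0.33 against 0.08 over all, but 2-fold above for 1 gene only. That gene was Hsd17b7, at 10.6 FPKM with siNC, 16.02 with pair 1 and 13.7 with pair 2 and at 6.26 and 5.601 in untransfected cells, where siNC was above them too. Lss was at 28.5 FPKM in both untransfected libraries, Fdps at 307 and 383, Srebf2 at 86.2 and 72.9 and Sqle at 119 and 89.2. In the TGF-β libraries 14 of the 23 genes were higher with both pairs than their own siNC (background 1.33%), with a median log2 change of 1.23. The additive limma model called 9 of the 23 as higher (0.770% of all genes tested), with Lss at 1.67 ± 0.17 (SE, adjusted p = 0.020), Srebf2 at 1.48 ± 0.14 (adjusted p = 0.020) and Fdps at 1.39 ± 0.15 (adjusted p = 0.022). None of these calls was kept in the limma fit with 1 mean per siRNA.

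**Figure D4:**
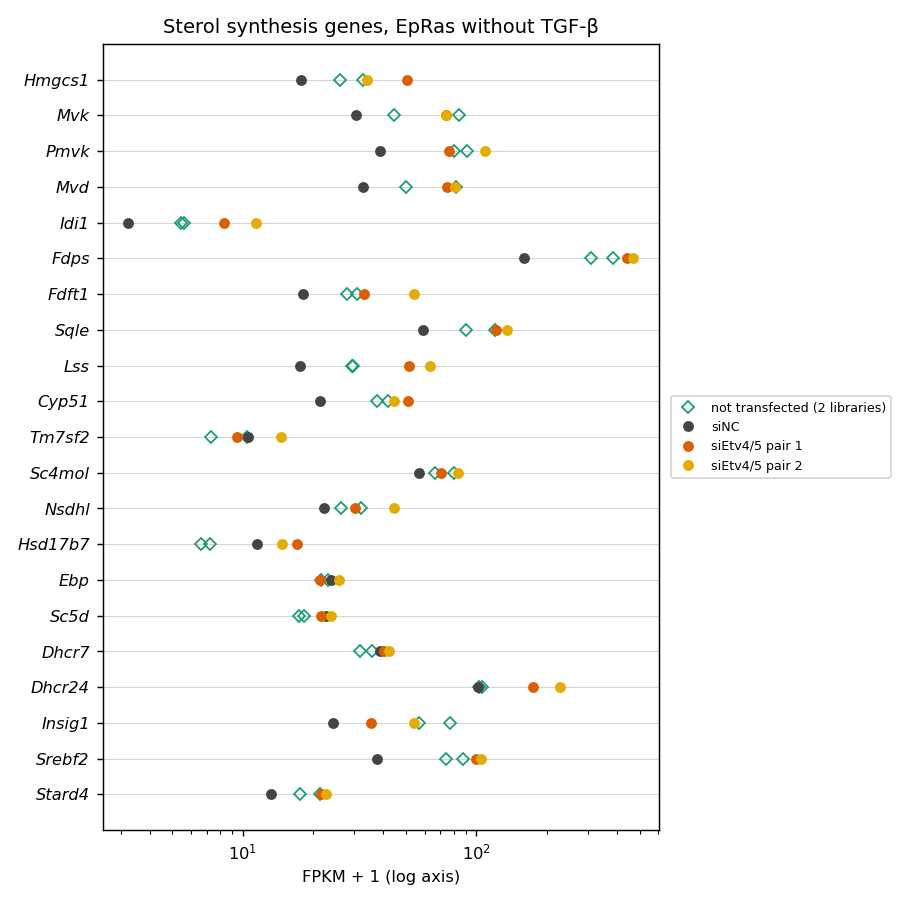
FPKM + 1 on a log axis for 21 of the 23 sterol synthesis genes without TGF-β, in siNC, both knockdown libraries and 2 untransfected EpRas libraries. In 18 of the 21 genes both knockdown points lie right of siNC, and in 16 the siNC point lies left of both untransfected libraries.

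The other higher genes named by rule were Jund and Zfp428, which with Lss were the only 3 to qualify. Jund, a Jun protein of the AP-1 complex, was at 81.6 FPKM with siNC and 319 with each pair, and at 194 and 165 in untransfected cells. Zfp428 was at 9.78 FPKM with siNC, 40.3 with pair 1 and 38.3 with pair 2, and at 44.7 and 38.0 in untransfected cells. For Zfp428 siNC was the low library, and for Jund siNC and the pairs lay on opposite sides of the untransfected cells. Of the 22 tested keratin and junction genes 1 was higher, the basal keratin Krt14, against 1.54% of all genes tested. Krt14 was at 109 FPKM with siNC, 237 with pair 1 and 365 with pair 2, and at 103 and 115 in untransfected cells.

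The epithelial and mesenchymal markers of EMT were not called, 0 of 12 tested in either direction. Over all genes tested 2.49% were lower and 1.54% higher, so a count of 0 in a list this short says little. Cdh1 (E-cadherin) was at 61.3 FPKM with siNC, 63.1 with pair 1 and 48.3 with pair 2, and Esrp2 at 14.0, 14.6 and 12.9 FPKM. In untransfected cells Cdh1 was at 24.4 and 27.4 FPKM and Esrp2 at 8.14 and 6.45, below siNC and both pairs. Cdh2 (N-cadherin) was at 41.9 FPKM with siNC, 40.7 with pair 1 and 22.5 with pair 2. Fn1 (fibronectin) was at 204 FPKM with siNC, 392 with pair 1 and 236 with pair 2. Cdh2 and Fn1 each differed from siNC with 1 pair more than with the other. Acta2 (smooth muscle actin) was at 23.4 FPKM with pair 1 and at 0.512 with siNC and 0.201 with pair 2. Snai1, a repressor of Cdh1, was at 9.14, 14.9 and 33.3 FPKM with siNC, pair 1 and pair 2.

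Most growth and stress genes were not called at 2-fold. None of 27 DNA replication genes and none of 26 mitosis genes was called, although 22 of the 26 mitosis genes were above siNC with both pairs, against 39.1% of all genes tested, and their median log2 change was 0.41. The siNC library was the low one for this list, with a median of -0.41 on the log2 scale against the untransfected cells, where the pairs had -0.04 (0.06 and 0.08 over all genes tested). None of 76 ribosomal protein genes or of 9 tested MHC class I genes was called. Among 14 tested p53 targets Trp53inp1 was lower and Bbc3 and Phlda3 were higher; over all genes tested, 2.49% were lower and 1.54% higher, which is the background for the next lists too. Among 18 tested genes of the integrated stress response Chac1 was lower and Atf5 higher, and among 10 tested interferon-stimulated genes Oasl1 was lower. Atf5 was at 16.3, 53.2 and 55.6 FPKM with siNC, pair 1 and pair 2, but at 114 and 69.7 in untransfected cells. Bbc3 (Puma) was at 5.16, 17.8 and 16.3 FPKM, against 13.4 and 8.89 in untransfected cells. Single genes were called in other lists: Osgin1 (1 of 15 Nrf2 targets) lower, and Smad6 (1 of 14 TGF-β feedback genes) and Ankrd37 (1 of 21 genes of glycolysis and hypoxia) higher. Smad6 and Ankrd37 reached 5 FPKM in knockdown libraries only, and Trp53inp1 and Oasl1 in siNC libraries only. Passing the filter thus favoured the direction of these calls. Among 11 tested receptor tyrosine kinases Egfr was lower and Pdgfrb, given above, higher. Egfr, the EGF receptor, was at 12.4, 5.08 and 3.21 FPKM with siNC, pair 1 and pair 2, against 4.48 and 4.12 in untransfected cells. No contractile gene was called among 15 tested.

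**Figure D5:**
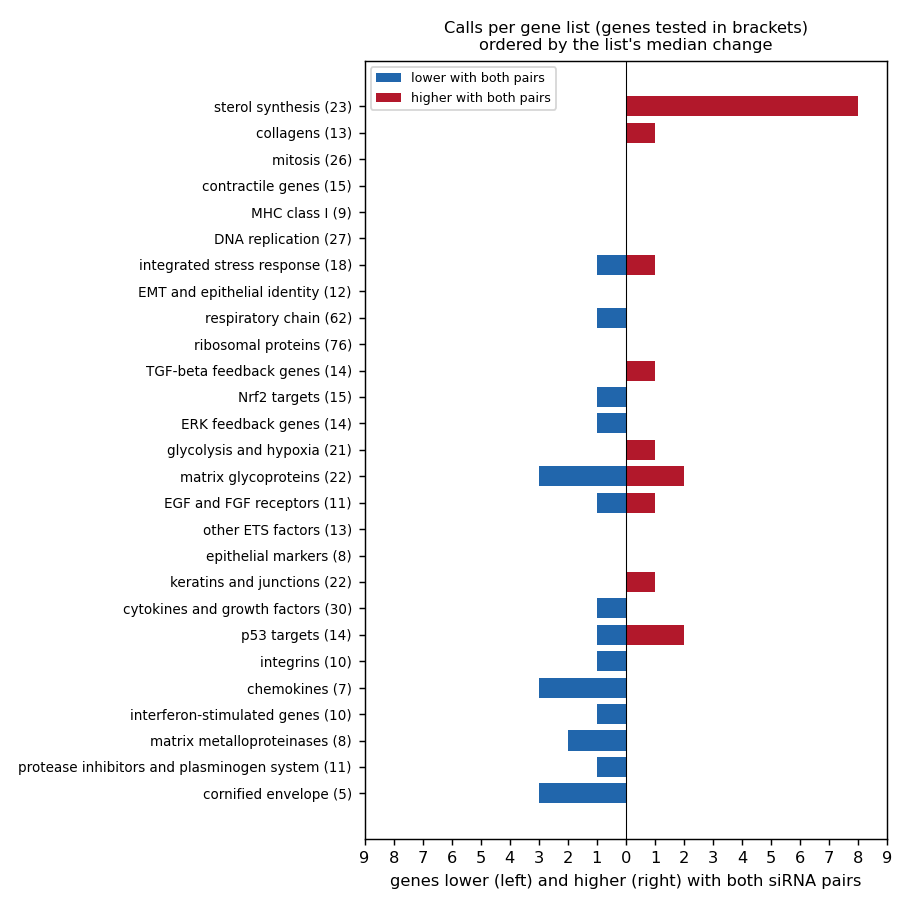
Number of genes lower (left) and higher (right) than siNC with both siRNA pairs, for each gene list with at least 5 genes tested (number in brackets), ordered by the list's median change. Sterol synthesis stands at the higher end with 8 of 23 genes, and the cornified envelope at the lower end with 3 of 5.

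The TGF-β libraries, with a different siNC library, allow the calls to be looked at again. Without regard to the calls above, 226 genes (2.49%) were lower and 121 (1.33%) higher with both pairs in them. Of the 226 genes lower without TGF-β, 97 (42.9%) were also 2-fold lower with TGF-β and 178 (78.8%) lay below siNC with both pairs at any size, which held for 35.0% of all genes tested. Of the 140 higher genes, 31 (22.1%) were also 2-fold higher and 93 (66.4%) lay above siNC, against 40.4% of all. In the opposite direction were 2 of the lower and 4 of the higher genes. The limma test of the difference between the effects without and with TGF-β called 11 (0.121%) and 8 (0.088%) genes, 18 of these 19 being small RNA genes or unnamed gene models and the other Pdyn, and with either pair left out it called 0, with 421 and 265 genes at an unadjusted p below 0.05.

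Promoters were read for the called genes to see which of the letters bound by ETS and AP-1 factors they hold near the start. RefSeq promoter windows (GRCm38.p6, from 250 bases before to 50 after the start) were matched by symbol for 6554 of the genes tested, 133 of the 226 lower genes and 94 of the 140 higher genes. A gene with several windows was counted as holding a motif when any of them did. The AP-1 letters TGANTCA, searched on both strands, were in 22 of the 133 lower genes (16.5%), 6 of the 94 higher genes (6.38%) and 6.16% of the genes tested. Over all genes with a window, tested or not, the share was 8.97%. The ETS letters AGGAAG were in 61 of the 133 lower genes (45.9%), 29 of the 94 higher genes (30.9%) and 36.4% of the genes tested, and in 38.4% of all genes with a window. A longer ETS motif, CCGGAAGT, was in 3 lower genes (2.26%), 5 higher genes (5.32%) and 10.4% of the genes tested, and in 4.31% of all genes with a window. The sterol element TCACNCCAC was in 1 of the 15 sterol genes with a window and in 1.34% of the genes tested, and in 1.44% of all genes with a window. Such a match describes the letters in these windows only and was given no test.

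Of the 32 lower genes chosen by the rule, 25 had a promoter window, and the 250 bases before the start held TGANTCA in 11 of them. In the longer windows above, TGANTCA was in 16.5% of the lower genes and 6.16% of the genes tested. The share over all genes for the 250 bases alone was not taken. The 32 include list members chosen with earlier results known, so the count is a description. Below are 5 of these, chosen to show the proteases, the cornified envelope genes and Procr, with TGANTCA in capitals. The letters begin 35 bases before the start of Mmp13, 63 before that of Mmp10, 116 before that of Ivl, 146 and 116 before that of Sprr1a and 154 before that of Procr.
Mmp13, chr9:7272264-7272513, plus strand: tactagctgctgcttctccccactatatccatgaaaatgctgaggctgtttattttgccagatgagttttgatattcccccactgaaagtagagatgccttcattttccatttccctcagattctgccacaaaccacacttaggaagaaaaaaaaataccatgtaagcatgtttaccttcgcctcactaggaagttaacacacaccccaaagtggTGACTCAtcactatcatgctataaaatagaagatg
Mmp10, chr9:7502092-7502341, plus strand: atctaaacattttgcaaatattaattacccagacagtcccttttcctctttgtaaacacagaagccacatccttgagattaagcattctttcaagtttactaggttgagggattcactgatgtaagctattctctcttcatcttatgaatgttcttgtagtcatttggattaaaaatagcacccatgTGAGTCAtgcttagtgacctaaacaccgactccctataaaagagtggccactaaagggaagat
Ivl, chr3:92573736-92573985, minus strand: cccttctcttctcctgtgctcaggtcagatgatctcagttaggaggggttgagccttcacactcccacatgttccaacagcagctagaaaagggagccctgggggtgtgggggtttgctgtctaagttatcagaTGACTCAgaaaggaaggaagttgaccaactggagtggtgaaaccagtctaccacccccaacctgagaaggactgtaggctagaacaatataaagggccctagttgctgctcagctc
Sprr1a, chr3:92485882-92486131, minus strand: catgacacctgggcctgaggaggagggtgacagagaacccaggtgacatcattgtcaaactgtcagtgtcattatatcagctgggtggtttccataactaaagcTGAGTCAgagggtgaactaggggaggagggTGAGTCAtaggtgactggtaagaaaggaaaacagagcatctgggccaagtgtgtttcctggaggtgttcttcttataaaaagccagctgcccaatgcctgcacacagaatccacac
Procr, chr2:155750967-155751216, plus strand: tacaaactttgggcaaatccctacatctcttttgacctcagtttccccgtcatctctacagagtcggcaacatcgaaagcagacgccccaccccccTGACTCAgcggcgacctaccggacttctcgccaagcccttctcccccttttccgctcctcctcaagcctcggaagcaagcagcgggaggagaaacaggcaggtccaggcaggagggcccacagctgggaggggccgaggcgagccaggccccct
Mmp13, Mmp10 and Procr were below the untransfected cells with both pairs, and Ivl and Sprr1a exceeded 1 FPKM in siNC only among the untreated libraries, so the same letters stood before genes of both kinds.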

How the data were processed

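RNA-seq of EpRas cells was analysed from the FPKM values deposited by the authors, in whose table each gene has an FPKM and a Cuffdiff interval for each of 6 siRNA libraries. Per the labels and the submitters' processing notes, mRNA was sequenced directionally on the Ion Proton, and TopHat2 2.0.11, Bowtie2 2.2.2.2, Cufflinks 2.2.0 with Cuffdiff and the mm10 genome were used. The untransfected libraries were processed separately and come from another table, so they were set beside the others without a test. No column of sample values was left unused (0), and the p-values and fold changes of the authors' comparisons were not used.

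Of 23284 genes, 2 without an OK status (Rn45s and Serbp1) were left out, and 9094 with a maximum of at least 5 FPKM over the 6 libraries were tested. Changes are differences of log2(FPKM + 1), which understate those of low genes, and ratios are of FPKM. limma 3.58.1 in R 4.3.3 was fitted with 1 mean per group, with an interaction contrast and, as an alternative, an additive model. The fit was tested on simulated data of this design. Reads were recovered from the steps between low FPKM for 3594 of 11584 genes (tolerance 0.03 reads, up to 200 reads in at least 4 libraries). The recovery of reads was also tested on simulated libraries.

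Named genes were Etv4, Etv5, Mmp13, Cdh1, Cdh2, Fn1 and Esrp2, up to 12 lower and 12 higher genes called with both pairs and intervals apart (mean of at least 10 FPKM over the 6 siRNA libraries, largest smaller change), and up to 4 called members per list. Some genes are counted but not reported here by name. Genes named beside these were chosen after their values were seen. The members, the lists and the rules were chosen with earlier results of these data known. Alternatives were pseudocounts of 0.1 and 5, no filter or a mean of at least 10 FPKM, 1.5-fold, the mean of the pairs, median-ratio rescaling, limma with trend, leaving out each pair, and, chosen after seeing the data, a 2-fold distance from untransfected cells, protein-coding genes only and the siRNA as a block. Python 3.11.15 was used with numpy 2.4.6 and pandas 2.3.3.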

Additional observations from a re-analysis of the deposited data

Results flagged for a closer look

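In 2 of the named genes both pairs moved away from siNC on opposite sides without and with TGF-β. Phlda3, a p53 target, was above siNC with both pairs without TGF-β (346 FPKM with siNC, 788 and 700 with the pairs) and below it with TGF-β (546 FPKM against 405 and 451). The difference of the effects was 1.45 on the log2 scale, and the limma interaction test did not pass (adjusted p = 0.965). Chac1, a stress response gene, was below siNC without TGF-β (47.7 FPKM against 21.1 and 20.6) and above it with TGF-β (25.0 FPKM against 26.7 and 33.3). Its difference was -1.40 on the log2 scale, with an adjusted p of 0.965 in the same limma test. In untransfected cells without TGF-β, Phlda3 was at 258 and 378 FPKM and Chac1 at 44.9 and 32.7.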

How the results depend on the processing

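The count of lower genes (226) became 133 with a pseudocount of 5 FPKM, 134 with a mean of at least 10 FPKM, 674 at 1.5-fold, 37 with intervals apart, and 11 when a 2-fold distance from both untransfected libraries was also required. The count of higher genes (140) became 67, 613, 8 and 16 with a pseudocount of 5, at 1.5-fold, with intervals apart and beyond the untransfected libraries, and 315 for the mean of the pairs. Leaving out a pair gave 414 to 437 lower and 304 to 351 higher genes. The limma counts (16 lower, 5 higher) became 7 and 3 with a mean of at least 10 FPKM, 123 and 70 in the additive model, 9 to 17 and 14 to 14 without a pair, and 3 higher genes without a filter. The interaction counts (11 and 8) became 7 and 4 with that mean, 5 and 3 with trend, and 0 without either pair in limma, where 421 and 265 genes had an unadjusted p below 0.05. The cause of these shifts was not tested beyond the fewer genes or libraries each setting uses. With a pseudocount of 5 FPKM the mean log2 change of Mmp13 was -0.72 and that of Etv5 -1.11. Of the values for named genes under the alternatives 203 stayed within the spread between the pairs and 57 moved, and of those for list medians 75 and 15. For a named gene, leaving out a pair gives the change of the other pair. Such a value is within that spread by definition, and the 203 include these values, so that count overstates how stable the genes were. None of the named genes that were called changed sign, which the rule for a call fixes in advance when a pair is left out. Cdh1 and Esrp2, which were not called, and 11 list medians did change sign with 1 pair left out. The largest of these medians was that of the contractile genes, 0.36 and -0.02 without pair 1, followed by the p53 targets, -0.31 and 0.15 without pair 2. The siRNA is shared by a library without and one with TGF-β, and the differences between pair 1 and pair 2 in both conditions had a correlation of 0.23 over 9094 genes. With the siRNA as a replicate block, chosen after seeing the data, the interaction counts were 13 and 14, and with 1 mean per siRNA the knockdown counts were 0 and 0, with 1150 genes at an unadjusted p below 0.05 in limma. In the 3 siRNA libraries without TGF-β, genes under about 5 FPKM rest on under 119.2 reads at the median.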
